A study of Mus musculus with 6 samples.

Results

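Molecular chaperones of the heat shock and J-protein families were followed in whole mouse testis. The group holds the genes of the deposited tables whose symbols begin with Hspa, Hspb, Hsph1, Hspd1, Hspe1, Hsp90, Hsf or Dnaja, Dnajb and Dnajc with a number, leaving out Hspa9 and Dnajc19. This gave 76 of 24411 genes, of which 44 encode J-proteins. The rule uses symbols and no measured value. A shared symbol does not always mean a shared role: Hsf2bp encodes a meiotic recombination protein named for its binding to HSF2, and Hspb11 encodes a subunit of the intraflagellar transport machinery. Of the 76 genes, 73 passed the filter on low counts. The other 3 were Hspb3, Hsf3 and Hsf4, with 3, 13 and 22 counts summed over all 6 libraries.

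RNA was taken from testes of age-matched C57BL/6 mice, a standard inbred strain, and sequenced in 6 libraries. In 3 libraries the genotype label was MRP5-/- and MRP9-/- (labelled DKO, for double knockout), and in the other 3 it was wildtype (labelled WT). MRP5 and MRP9 are membrane transporters encoded by Abcc5 and Abcc12. No treatment, age in weeks or allele design is given in the labels, which also do not say whether the tissue of each library came from 1 animal, so p-values measure the spread between these libraries.

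HSP70 proteins bind and release unfolded protein in a cycle driven by ATP. J-proteins deliver clients to HSP70 and trigger its ATP hydrolysis, and HSP110 proteins act as exchange factors that reset it. HSP90 acts later on signalling proteins, the HSP60 and HSP10 pair folds proteins inside mitochondria, small heat shock proteins hold unfolded clients without ATP, and heat shock factors drive transcription of many of these genes. Male germ cells carry their own versions, among them HSPA2, which spermatocytes need to complete meiosis, and HSPA1L of spermatids.

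Depth ranged from 42673615 to 67131103 expected counts in libraries labelled DKO and from 26753721 to 31745969 in those labelled WT. Mean fragment length was 275 to 317 bases and 230 to 258 bases, and neither measure overlapped between genotypes. For both, the two-sided exact permutation test gave p = 0.1, which is the lowest value possible with 3 libraries a side. Abcc12 was lower in libraries labelled DKO (79.0 ± 5.56 against 160 ± 3.93 CPM, the gene's count relative to the scaled library size, SD, n = 3 each; edgeR adjusted p = 0.000307). Abcc5 was higher (16.8 ± 0.190 against 11.4 ± 0.898 CPM, SD, n = 3 each; edgeR adjusted p = 0.0225), which is not the direction of its label. The call on Abcc5 held in 6 of 9 other settings and in 3 of 6 fits without a library, and limma on log2(TPM + 1) gave a log2 fold change of 0.27 (adjusted p = 0.0928, from 8.56e-05 to 0.999 over the 9 settings). Gene totals cannot show a missing exon, and groups are named by their labels throughout. Summed TPM, a level scaled by transcript length and library, of 8 Sertoli cell markers was 797 to 894 in libraries labelled DKO and 1122 to 1344 in those labelled WT, with 3 of 8 called lower. For 8 Leydig cell markers the sums were 864 to 1521 and 1499 to 3146, with 3 of 8 called lower, and for 8 spermatocyte markers 1909 to 2093 and 1660 to 1781, with 1 of 8 called higher. Most of each sum came from 1 gene. These were Defb19 (492 to 627 and 815 to 984 TPM, DKO first), Insl3 (582 to 1193 and 1215 to 2576 TPM) and Pgk2 (1160 to 1232 and 1002 to 1128 TPM). Against the direction of their lists, Wt1, Hsd3b1, Piwil1 and Ccna1 had log2 fold changes of 0.08, 0.21, -0.0055 and -0.08. Sycp3 was the spermatocyte marker called (log2 fold change 0.67; edgeR adjusted p = 0.0237). Of all tested genes, 5.1% were called lower and 5.75% higher. Before adjustment, edgeR p-values were below 0.05 for 4 Sertoli, 5 Leydig and 5 spermatocyte markers, beside 5428 of all 17110 genes. DESeq2 called 3, 2 and 2 markers of these lists, and 21.3% of all genes. No gene of the lists for spermatogonia (7 tested of 8), spermatids (9), macrophages (7) and endothelial and myoid cells (6) was called by edgeR (0, 1, 3 and 3 at an unadjusted p under 0.05, and 0, 1, 0 and 2 with DESeq2), and none of the 5 epididymis markers passed the count filter, with Lcn5 and Lcn8 at 0. The part of these cell type differences in the chaperone results was not tested, and in bulk tissue fewer cells of a type and less RNA per cell cannot be told apart.

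The 12 genes with the highest mean TPM took 69.7 to 73.0% of the summed TPM of all 76 genes in each library. Dnajb3, a sperm J-protein gene, ranked first with 1676, 1895 and 1659 TPM in libraries labelled DKO and 1831, 1799 and 1921 TPM in those labelled WT. Hsp90aa1, the inducible cytosolic HSP90, followed with a mean over all libraries of 1338 TPM, and Hspb9, a testis small heat shock protein, with 1296 TPM. Hspa2 and Hspa1l stood at 1070 and 1015 TPM, and Dnajb8, a testis J-protein gene, at 893 TPM. These were followed by Dnajc15 of the mitochondrial inner membrane (554 TPM), Dnajb6, which holds back protein aggregation (518 TPM), Hspa5, the HSP70 of the endoplasmic reticulum known as BiP (507 TPM), Dnajc5b, a cysteine string protein (458 TPM), Dnajb13 of the sperm axoneme (435 TPM) and Hsp90b1, the HSP90 of the endoplasmic reticulum (412 TPM). At the other end, Hsf3, Hsf4 and Hspb3 were each under 0.1 TPM on average. Hspa1a and Hspa1b, the stress-inducible HSP70 genes, were at 7.63 and 4.42 TPM.

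**Figure D1:**
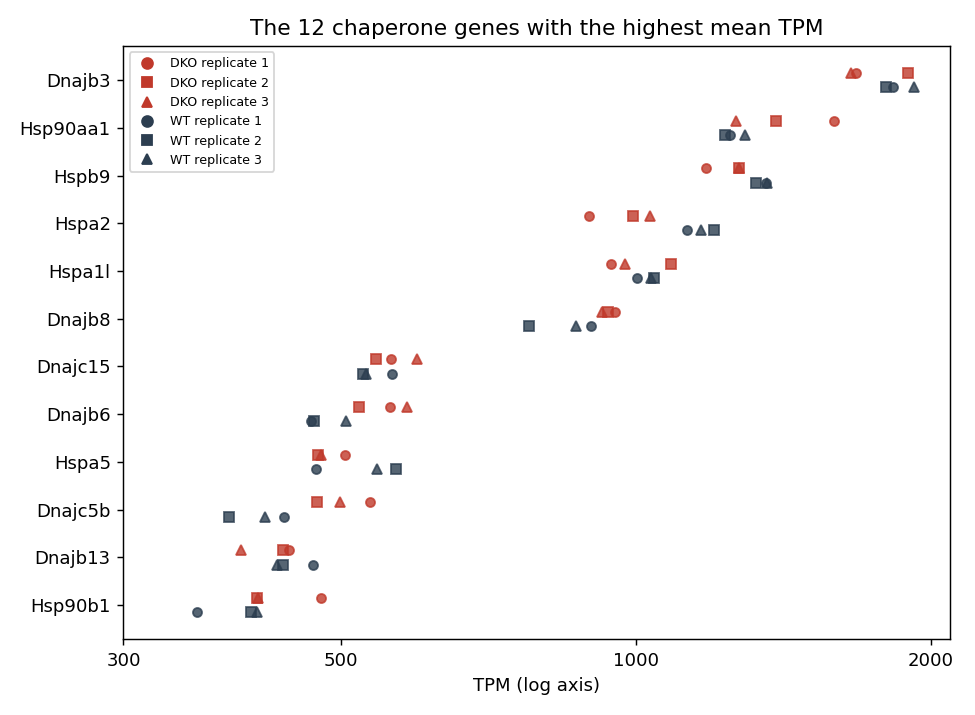
TPM (x axis, log scale) of the 12 chaperone genes with the highest mean level in each of the 6 libraries, with colour for the labelled genotype and shape for the replicate. Dnajb3 leads with a mean of 1797 TPM, and the libraries of both groups are interleaved for Dnajb3, Hsp90aa1 and Hspa1l.

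The comparison of libraries labelled DKO with those labelled WT asks which chaperone genes differ when both transporters are recorded as missing. Of the 73 tested genes, 16 (21.9%) were called at a Benjamini-Hochberg adjusted p under 0.05 by the edgeR quasi-likelihood test, against 10.8% of all 17110 tested genes. Of these, 15 rose in libraries labelled DKO, where 5.75% of all genes were called higher, and 1 fell, where 5.1% of all genes were called lower. The 15 were Dnaja1, Dnaja2, Dnaja4, Dnajb4, Dnajb7, Dnajb9, Dnajb11, Dnajb14, Dnajc10, Dnajc14, Dnajc28, Hspa4, Hspa4l, Hspa13 and Hsf2bp. Hspa1b was the gene that fell. The CPM of the groups did not overlap for 33 of the 73 genes (45.2%), against 35.9% of all tested genes. The median log2 fold change of the 73 was 0.11, beside -0.0042 over all tested genes, and 48 were above 0. J-proteins made up 11 of the calls (25% of 44 tested, median 0.15), and the other genes 5 (17.2% of 29 tested, median 0.018).

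**Figure D2:**
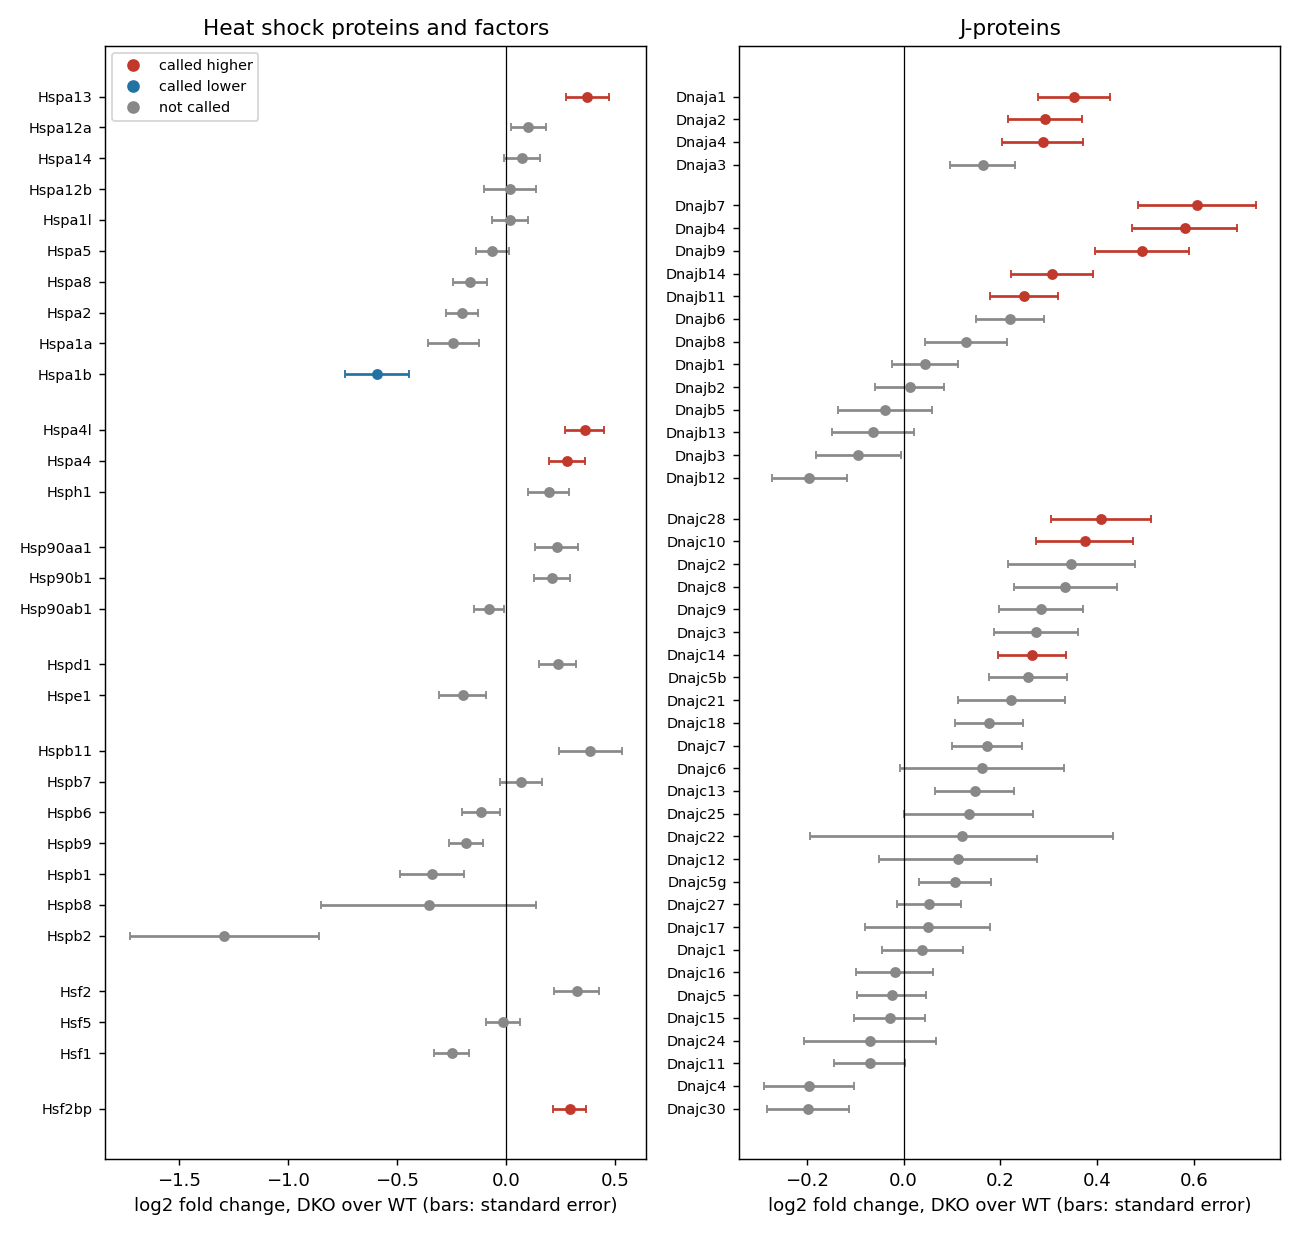
Log2 fold change of each of the 73 tested genes with its standard error, grouped by family, with called genes in colour. All 4 Dnaja genes lie above 0, whereas the HSP70 genes lie on both sides.

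The changes were small and their adjusted p-values lay close to the threshold, from 0.0243 for Dnajb4 to 0.0498 for Hspa4. Leaving out DKO replicate 1, WT replicate 2 or WT replicate 3 left 0 chaperone genes called (24, 30 and 27 at an unadjusted p under 0.05) and 11, 13 and 7 of all genes. In the edgeR fit of all libraries, 37 of 73 chaperone genes and 5428 of all 17110 had an unadjusted p under 0.05. With the mean fragment length as a covariate 0 of 73 were called, with 0 at an unadjusted p under 0.05, and 1 of all genes. Fragment length did not overlap between genotypes, so that fit cannot tell the part of each apart. With the effective length of each gene in each library as an offset, 17 were called, 14 of them among the 16. Limma on log2(TPM + 1) called 4 (5.48% of 73, against 5.55% of all genes in that fit), which were Dnajb4, Dnajb7, Dnajb9 and Hspa4l, so the higher share of calls among the chaperone genes was not seen there. DKO replicate 1, the library with the longest fragments (317 bases), was the highest of all 6 in 15 of the 15 genes called higher, and WT replicate 2, with the shortest (230 bases), was the lowest in 13. Over all 984 genes called higher the same libraries were highest in 90.3% and lowest in 85.2%. WT replicate 2 also had the highest summed Sertoli and Leydig markers, at 1344 and 3146 TPM.

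**Figure D3:**
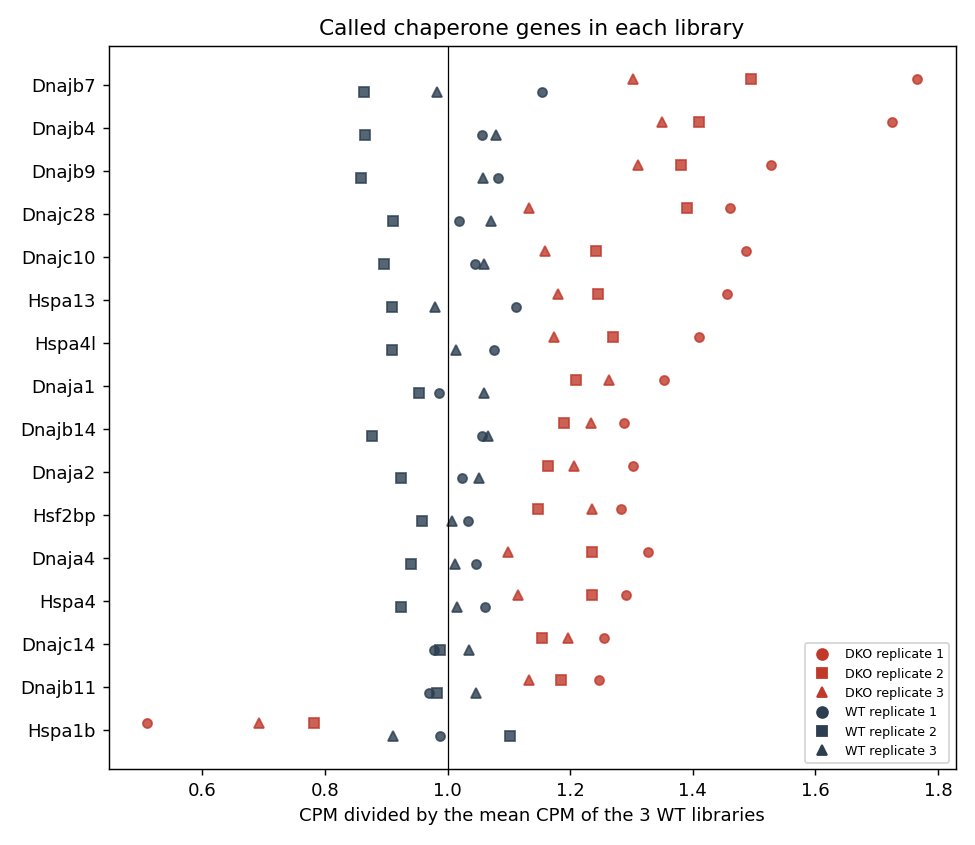
CPM of the 16 called genes in each library, divided by the mean of the 3 libraries labelled WT (x axis, 1 marks that mean). For the 15 higher genes DKO replicate 1 lies farthest right, and for Hspa1b the same library lies farthest left.

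Type A J-proteins share the zinc-binding build of bacterial DnaJ. Of 4 tested, 3 rose (5.75% of all genes did). The CPM of the groups did not overlap for any of the 4, where 35.9% of all tested genes did not overlap either. Dnaja1, a cytosolic partner of HSP70, had 297, 266 and 278 CPM in libraries labelled DKO and 217, 210 and 233 CPM in those labelled WT. Every library labelled DKO was thus above every library labelled WT (log2 fold change 0.35, SE 0.0743; edgeR adjusted p = 0.0271). Dnaja2, a cytosolic refolding partner of HSP70, had 158, 141 and 146 CPM against 124, 112 and 128 CPM. That is an increase of 22.4% (log2 fold change 0.29, SE 0.0768; edgeR adjusted p = 0.0390). Dnaja4 had 311, 290 and 258 CPM against 246, 221 and 237 CPM, and its lowest library labelled DKO was close to its highest labelled WT (log2 fold change 0.29, SE 0.0834; edgeR adjusted p = 0.0495). Dnaja3, the mitochondrial member, had 58.3, 56.6 and 56.6 CPM against 50.9, 49.5 and 52.8 CPM and was not called (log2 fold change 0.16; edgeR adjusted p = 0.119).

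Type B J-proteins held the largest increases of the group. Of 13 tested, 5 rose (38.5%, against 5.75% of all genes called higher) and none fell. Dnajb7, a gene known for its expression in testis, had 215, 182 and 159 CPM in libraries labelled DKO and 141, 105 and 120 CPM in those labelled WT. The groups did not overlap, and the level was 1.52-fold higher (log2 fold change 0.61, SE 0.122; edgeR adjusted p = 0.0263). Dnajb4, a cytosolic partner of HSP70, had 268, 219 and 210 CPM against 164, 134 and 168 CPM. It was 49.5% higher (log2 fold change 0.58, SE 0.109) and had the smallest p of the 73 genes (edgeR adjusted p = 0.0243). Leaving out a replicate moved the log2 fold change of Dnajb4 between 0.45 and 0.65 and that of Dnajb7 between 0.47 and 0.71, with 3 of 6 such fits past the threshold for each.

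The abundant germ cell type B genes were not among those called. Dnajb3 had overlapping groups (log2 fold change -0.09, SE 0.0882; edgeR adjusted p = 0.499). Dnajb8 was at 459 ± 16.7 against 420 ± 43.6 CPM (SD, n = 3 each; log2 fold change 0.13; edgeR adjusted p = 0.316), and Dnajb13 at 254 ± 20.8 against 266 ± 19.8 CPM (SD, n = 3 each; log2 fold change -0.06; edgeR adjusted p = 0.640). Dnajb6 had 620, 605 and 602 CPM against 529, 489 and 550 CPM, with no overlap, and just missed the threshold (log2 fold change 0.22, SE 0.0709; edgeR adjusted p = 0.0630). It passed with DESeq2 (adjusted p = 0.0257) and with the effective-length offset (edgeR adjusted p = 0.0482). Dnajb1, the heat-inducible partner of HSP70, was at 394 ± 6.63 against 382 ± 16.1 CPM (SD, n = 3 each; log2 fold change 0.04; edgeR adjusted p = 0.686). As a share of the TPM of all 44 J-protein genes, Dnajb3 took 21.7, 25.2 and 22.6% in libraries labelled DKO and 25.7, 26.6 and 26.8% in those labelled WT. The shares did not overlap (exact permutation p = 0.1, two-sided, n = 3 each), while the 44 genes summed to 7716, 7510 and 7344 TPM in libraries labelled DKO and 7110, 6766 and 7167 TPM in those labelled WT.

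Several of the called genes belong to the endoplasmic reticulum, where some J-proteins serve BiP. Genes are listed here by location, and Dnajb14 and Dnajb12 are not counted as partners of BiP. This grouping was made after the values were seen. Dnajb9, also known as ERdj4, which binds unfolded protein and represses the stress sensor IRE1, had 97.0, 87.7 and 83.2 CPM in libraries labelled DKO and 68.7, 54.6 and 67.2 CPM in those labelled WT. The groups were separate, with 40.7% more in libraries labelled DKO (log2 fold change 0.49, SE 0.0967; edgeR adjusted p = 0.0255). Dnajc10, a disulfide reductase known as ERdj5, was at 99.6 ± 13.1 against 76.8 ± 6.87 CPM (SD, n = 3 each; log2 fold change 0.37; edgeR adjusted p = 0.0409). Dnajb11, the soluble ERdj3, was at 116 ± 5.55 against 97.2 ± 3.94 CPM (SD, n = 3 each; log2 fold change 0.25; edgeR adjusted p = 0.0464). Dnajb14, which sits in the membrane of the reticulum, was at 159 ± 6.26 against 128 ± 13.6 CPM (SD, n = 3 each; log2 fold change 0.31; edgeR adjusted p = 0.0442). Dnajb12, its close relative, had a log2 fold change of the opposite sign, -0.19 (SE 0.0775; edgeR adjusted p = 0.111). Dnajc3, an inhibitor of the kinase PERK and known as p58IPK, had 91.2, 82.8 and 72.8 CPM against 71.4, 65.6 and 67.1 CPM and was not called (log2 fold change 0.27; edgeR adjusted p = 0.0618). Dnajc1 was not called either (log2 fold change 0.04; edgeR adjusted p = 0.783). BiP itself, Hspa5, had 802, 774 and 726 CPM against 746, 828 and 833 CPM, which overlapped (log2 fold change -0.06, SE 0.0756; edgeR adjusted p = 0.595). Dnajc10 turned to -0.05 with the fragment length as a covariate, where it was not called.

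Type C J-proteins, the most varied class, had 3 of 27 tested genes called (11.1%, close to the 10.8% of all genes). Each of the 3 was higher, where 5.75% of all genes were called higher. At an unadjusted p under 0.05 in edgeR there were 11 of 27, beside 5428 of all 17110 tested genes. DESeq2 called 8 of the class and 21.3% of all genes. Dnajc28 had 46.6, 44.4 and 36.2 CPM against 32.5, 29.1 and 34.2 CPM, so DKO replicate 3 lay nearest the libraries labelled WT (log2 fold change 0.41, SE 0.103; edgeR adjusted p = 0.0366). Dnajc14, a J-protein of the endoplasmic reticulum membrane, was at 53.7 ± 2.25 against 44.7 ± 1.35 CPM (SD, n = 3 each; log2 fold change 0.27; edgeR adjusted p = 0.0387). The third was Dnajc10, described above. Dnajc5b had 239, 224 and 224 CPM against 208, 172 and 194 CPM and was not called (log2 fold change 0.26; edgeR adjusted p = 0.0594), although it passed with DESeq2 (adjusted p = 0.0235). Dnajc15 was at 142 ± 7.87 against 145 ± 7.45 CPM (SD, n = 3 each; log2 fold change -0.03; edgeR adjusted p = 0.823). Across the class, log2 fold changes ran from -0.20 for Dnajc30 to 0.41 for Dnajc28, and 20 of 27 were above 0.

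In the HSP70 family 1 of 10 tested genes was called higher and 1 lower (20%, against 10.8% of all tested genes). The median log2 fold change of the family was -0.02. Hspa2 had 1414, 1615 and 1563 CPM in libraries labelled DKO and 1778, 1741 and 1772 CPM in those labelled WT. The groups did not overlap, yet Hspa2 was not called (log2 fold change -0.20, SE 0.0745; edgeR adjusted p = 0.0881), apart from DESeq2 (adjusted p = 0.0370). Hspa1l had 1415, 1676 and 1403 CPM against 1502, 1436 and 1500 CPM, with libraries labelled DKO on both sides of the others (log2 fold change 0.02, SE 0.0836; edgeR adjusted p = 0.906). Hspa8, the constitutive cytosolic HSP70, was at 313 ± 2.16 against 351 ± 31.4 CPM (SD, n = 3 each; log2 fold change -0.17; edgeR adjusted p = 0.164). Hspa13, an HSP70-like ATPase of microsomes, rose from 38.3, 31.3 and 33.7 CPM in libraries labelled WT to 50.2, 42.9 and 40.7 CPM in those labelled DKO (log2 fold change 0.37, SE 0.0996; edgeR adjusted p = 0.0403). With the fragment length as a covariate, its log2 fold change was -0.03.

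The summed TPM of the 10 HSP70 genes was 2642, 2842 and 2794 in libraries labelled DKO and 2902, 3193 and 3081 in those labelled WT, with no overlap (exact permutation p = 0.1, two-sided, n = 3 each). Hspa2 and Hspa1l together gave 71.6 ± 1.77% of that sum in libraries labelled DKO and 71.7 ± 1.56% in those labelled WT (SD, n = 3 each; exact permutation p = 0.9). The share of each gene alone did not overlap between the groups. Hspa2 gave 33.9, 35.0 and 37.0% in libraries labelled DKO and 38.9, 37.7 and 37.8% in those labelled WT, while Hspa1l gave 35.7, 38.2 and 34.9% and 34.6, 32.7 and 33.7% (exact permutation p = 0.1 for each, n = 3 each).

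**Figure D4:**
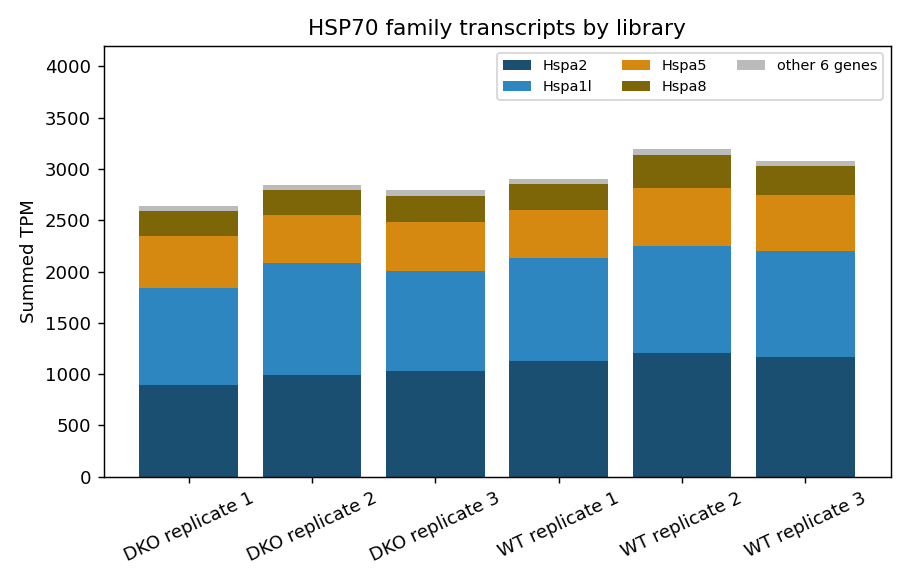
Summed TPM of the 10 HSP70 genes in each library (bars start at 0), divided into Hspa2, Hspa1l, Hspa5, Hspa8 and the remaining 6 genes. Hspa2 and Hspa1l fill about the same share in both groups, 71.6% and 71.7% on average.

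Hspa1b (chr17:34956429-34959238, minus strand, GRCm38.p6) was the single chaperone gene that fell. It had 4.68, 7.18 and 6.37 CPM in libraries labelled DKO and 9.07, 10.1 and 8.37 CPM in those labelled WT. Every library labelled DKO was lower (log2 fold change -0.59, SE 0.148; edgeR adjusted p = 0.0360). Its near copy Hspa1a, on the same chromosome, was at 12.1 ± 1.59 against 14.3 ± 1.59 CPM (SD, n = 3 each; log2 fold change -0.24; edgeR adjusted p = 0.182), with overlapping groups. The expected counts of both genes carried fractions, and 62.3% of the 50-base words of the Hspa1b transcript also occur in Hspa1a, so the split between them is uncertain. The summed CPM of Hspa1a and Hspa1b was 15.5, 21.0 and 17.8 against 23.7, 25.7 and 20.9, which overlapped. Of the Hspa1b words, 6.79% also occur in the far more abundant Hspa1l (means of 1498 and 1480 CPM), whose counts carried fractions too. The part of reads shared with Hspa1l was not tested, and the sum does not address it.

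Of the 3 HSP110 exchange factors, 2 were called higher, against 5.75% of all tested genes. Hspa4l, a testis-rich member, had 1110, 1000 and 924 CPM in libraries labelled DKO and 848, 717 and 798 CPM in those labelled WT. It was the most abundant of the called genes, with every library labelled DKO above the rest (log2 fold change 0.36, SE 0.0897; edgeR adjusted p = 0.0358). Hspa4 had 372, 356 and 321 CPM against 306, 267 and 293 CPM (log2 fold change 0.28; edgeR adjusted p = 0.0498). Hsph1 was not called and its groups overlapped (log2 fold change 0.19, SE 0.0955; edgeR adjusted p = 0.187).

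None of the 3 HSP90 genes was called by edgeR or by DESeq2, which called 10.8% and 21.3% of all genes. At an unadjusted p under 0.05 in edgeR there were 2, beside 5428 of all 17110 tested genes. Hsp90aa1 had 2884, 2588 and 2191 CPM against 2248, 2033 and 2247 CPM, so DKO replicate 3 lay among the libraries labelled WT (log2 fold change 0.23, SE 0.0995; edgeR adjusted p = 0.136). It passed the threshold when that library was left out (log2 fold change 0.33; edgeR adjusted p = 0.0311). Hsp90b1 had a log2 fold change of 0.21 (edgeR adjusted p = 0.116), and Hsp90ab1, the constitutive cytosolic form, of -0.08 (edgeR adjusted p = 0.451). The mitochondrial pair Hspd1 and Hspe1, which fold proteins together as HSP60 and HSP10, were not called, with log2 fold changes of 0.24 and -0.20 (edgeR adjusted p = 0.0834 and 0.225; 1 at an unadjusted p under 0.05, 0 with DESeq2).

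Small heat shock proteins gave 0 calls among 7 tested genes with edgeR and with DESeq2, which called 10.8% and 21.3% of all genes. Of the 7, 5 had log2 fold changes below 0, and the median was -0.19. At an unadjusted p under 0.05 in edgeR there were 4, Hspb2, Hspb11, Hspb9 and Hspb1, beside 5428 of all 17110 tested genes. Hspb9 had 346, 406 and 386 CPM in libraries labelled DKO and 443, 415 and 437 CPM in those labelled WT, without overlap (log2 fold change -0.19, SE 0.0774; edgeR adjusted p = 0.125). Hspb1 was at 12.3 ± 2.82 against 15.5 ± 0.697 CPM (SD, n = 3 each; edgeR adjusted p = 0.131). Hspb2, which had the lowest fold change (log2 -1.29, SE 0.433; edgeR adjusted p = 0.0702), rested on 3 to 15 counts per library and shares exon sequence on the opposite strand with Cryab.

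Of the heat shock factors, 3 were tested and none was called by edgeR, while DESeq2 called Hsf2 (10.8% and 21.3% of all genes were called). At an unadjusted p under 0.05 in edgeR there were 2, beside 5428 of all 17110 tested genes. Hsf1, the main factor of the heat shock response, had 19.5, 18.8 and 19.0 CPM in libraries labelled DKO and 21.6, 22.2 and 24.4 CPM in those labelled WT (log2 fold change -0.25, SE 0.0814; edgeR adjusted p = 0.0642). Hsf2, which acts in germ cell development, had 47.0, 42.7 and 38.4 CPM against 39.0, 30.4 and 33.1 CPM, with a small overlap (log2 fold change 0.32, SE 0.104; edgeR adjusted p = 0.0626). Hsf1 and Hsf2 thus had fold changes of opposite sign, neither past the threshold. Hsf5, a testis factor, was at 263 ± 21.2 against 266 ± 9.39 CPM (SD, n = 3 each; log2 fold change -0.02; edgeR adjusted p = 0.912). Hsf2bp rose, with 44.8, 40.1 and 43.2 CPM against 36.1, 33.5 and 35.2 CPM (log2 fold change 0.29, SE 0.0745; edgeR adjusted p = 0.0373).

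Because heat shock factors bind repeats of GAA and TTC, the promoters of the group were read for such letters. The RefSeq promoter table (GRCm38.p6, 250 bases before to 50 after each start) held 61 of the 76 genes. GAANNTTC, which reads the same on both strands, occurred in 14 of the 61 (23%), against 9.04% of all genes in that table. The 3-unit form GAANNTTCNNGAA, searched on both strands and containing the shorter motif, occurred in Dnajb6, Hspd1, Hspe1 and Hsph1, which is 6.56% against 0.662% of all genes. The windows of Hspd1 and Hspe1, which lie head to head, overlap and hold the same element, so 1 stretch of DNA counts for both genes here and in the count of the shorter motif. Among the called genes with a promoter in the table, 3 of 15 held GAANNTTC (Dnaja1 and Dnaja4, which rose, and Hspa1b, which fell). Of those tested and not called it was 10 of 44. TTCNNGAA, the same units in the other order, occurred in 7 of the 61 (11.5%), close to the 9.6% of all genes. Among the called genes it occurred in Dnajb4 and Dnajc10. The letters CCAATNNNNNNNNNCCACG, the endoplasmic reticulum stress element, occurred on either strand in Hspa5, Hsp90b1 and Dnajc3, against 0.137% of all genes. None of these 3 was called. A match is a description of letters and not of binding. The 5 promoters of called genes with either heat shock order are shown, with those of Hspe1 for the 3-unit form and Hspa5 for the stress element, which belong to genes that were not called. Where the table lists several starts of a gene, one with the match is shown. Sequences run 5′ to 3′ along the gene, from GRCm38.p6, with the fixed letters of a match in capitals.
Hspa1b, chr17:34959189-34959488, minus strand: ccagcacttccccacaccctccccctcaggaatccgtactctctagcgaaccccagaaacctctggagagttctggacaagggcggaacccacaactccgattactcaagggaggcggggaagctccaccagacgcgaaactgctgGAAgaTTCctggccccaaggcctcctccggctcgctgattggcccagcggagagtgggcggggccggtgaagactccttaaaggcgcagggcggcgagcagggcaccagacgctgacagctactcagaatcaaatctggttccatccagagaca
Dnaja1, chr4:40722218-40722517, plus strand: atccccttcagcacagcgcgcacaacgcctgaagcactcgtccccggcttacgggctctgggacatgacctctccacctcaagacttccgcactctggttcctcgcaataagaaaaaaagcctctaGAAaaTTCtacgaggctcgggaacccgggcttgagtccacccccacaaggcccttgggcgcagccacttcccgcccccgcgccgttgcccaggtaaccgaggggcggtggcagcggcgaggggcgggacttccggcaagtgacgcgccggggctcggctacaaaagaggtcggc
Dnaja4, chr9:54699309-54699608, plus strand: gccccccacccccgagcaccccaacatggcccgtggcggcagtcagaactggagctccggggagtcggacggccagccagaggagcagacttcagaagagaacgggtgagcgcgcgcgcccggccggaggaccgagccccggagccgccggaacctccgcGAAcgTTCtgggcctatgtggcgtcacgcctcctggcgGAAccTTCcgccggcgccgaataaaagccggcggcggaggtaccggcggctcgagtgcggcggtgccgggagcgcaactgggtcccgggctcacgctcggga
Dnajb4, chr3:152193796-152194095, minus strand: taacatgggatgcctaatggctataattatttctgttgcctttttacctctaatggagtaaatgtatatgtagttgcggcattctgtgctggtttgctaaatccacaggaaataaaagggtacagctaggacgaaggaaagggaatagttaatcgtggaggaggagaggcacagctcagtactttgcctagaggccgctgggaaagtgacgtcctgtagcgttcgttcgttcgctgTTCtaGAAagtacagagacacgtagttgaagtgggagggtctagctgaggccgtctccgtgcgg
Dnajc10, chr2:80315216-80315515, plus strand: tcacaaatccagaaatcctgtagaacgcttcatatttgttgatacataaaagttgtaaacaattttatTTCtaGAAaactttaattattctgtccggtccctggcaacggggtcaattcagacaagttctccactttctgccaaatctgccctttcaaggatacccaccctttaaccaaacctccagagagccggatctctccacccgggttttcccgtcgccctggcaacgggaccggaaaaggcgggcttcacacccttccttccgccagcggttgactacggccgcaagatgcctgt
Hspe1, chr1:55087898-55088197, plus strand: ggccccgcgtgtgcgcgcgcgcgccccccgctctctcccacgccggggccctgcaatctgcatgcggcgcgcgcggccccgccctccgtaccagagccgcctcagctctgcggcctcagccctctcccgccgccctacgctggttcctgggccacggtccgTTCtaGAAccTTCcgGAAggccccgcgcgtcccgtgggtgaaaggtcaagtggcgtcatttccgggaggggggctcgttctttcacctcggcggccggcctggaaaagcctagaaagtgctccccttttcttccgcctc
Hspa5, chr2:34771840-34772139, plus strand: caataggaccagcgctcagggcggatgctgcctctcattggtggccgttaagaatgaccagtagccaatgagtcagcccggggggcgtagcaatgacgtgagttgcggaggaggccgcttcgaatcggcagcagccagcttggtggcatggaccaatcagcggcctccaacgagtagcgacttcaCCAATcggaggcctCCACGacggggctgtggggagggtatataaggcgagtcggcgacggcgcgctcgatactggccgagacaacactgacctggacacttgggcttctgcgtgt

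In these windows the Hspe1 promoter has 4 alternating units in a row, and Hspe1 was at 15.4 ± 0.864 against 17.7 ± 2.46 CPM (SD, n = 3 each). The single GAANNTTC of Dnaja1 and both of Dnaja4 lie before the start site of the window shown. Dnaja4 also has an earlier listed start (window chr9:54699033-54699332), and both of its matches lie after that start. Genes with the motif thus lay among those that rose, fell and were not called.

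Partners of these chaperones were read from lists drawn up by function, with earlier results of these data known, so the shares only describe the lists. Of 36 tested co-chaperones of HSP70 and HSP90, 4 were called higher and 4 lower (22.2%, against 10.8% of all tested genes, 5.75% higher and 5.1% lower), with a median log2 fold change of 0.0097. The 3 with the smallest p were Pih1d3, a factor that assembles axonemal dynein (log2 fold change 0.60; edgeR adjusted p = 0.0255), Cdc37l1, a relative of the HSP90 kinase adaptor (0.39; edgeR adjusted p = 0.0358), and Ruvbl2, an ATPase of the R2TP assembly complex (-0.34; edgeR adjusted p = 0.0387). Of 18 genes of the cytosolic chaperonin, prefoldin and their phosducin-like helpers, 3 were called higher and 3 lower (33.3%, against the same 10.8%), with a median of 0.13. Pdcl2, a germ cell phosducin-like gene, rose from 370 ± 34.1 to 533 ± 57.6 CPM (SD, n = 3 each; log2 fold change 0.53; edgeR adjusted p = 0.0237). The prefoldin subunit Pfdn2 fell (log2 fold change -0.64; edgeR adjusted p = 0.0253), and Pdcl3, a relative of Pdcl2, fell by 0.62 (edgeR adjusted p = 0.0272). Of 19 folding factors of the endoplasmic reticulum, 1 was called higher and 2 lower (15.8%, near the 10.8% of all genes), with a median of 0.047. The glycoprotein disulfide isomerase Pdia3 rose (log2 fold change 0.40; edgeR adjusted p = 0.0271), while Sdf2l1, a partner of Dnajb11, and its relative Sdf2 fell by 0.46 and 0.53 (edgeR adjusted p = 0.0271 and 0.0343). Dnajb11 and Sdf2l1, which work as a pair, thus changed in opposite directions.

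When each library was left out in turn, the 15 higher genes and Hspa1b kept their sign in all 6 fits. The CPM of the groups did not overlap for any of these genes. A kept sign therefore follows almost directly from the full data and adds no support. Each of these genes passed the threshold in 1 to 3 of the 6 fits. Dnajb4, Dnajb7, Dnajb9 and Hspa4l passed the threshold in 8 of the 9 settings that kept all libraries, the exception being the fragment length covariate. Dnaja4 and Hspa4 passed in 4 of 9.

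**Figure D5:**
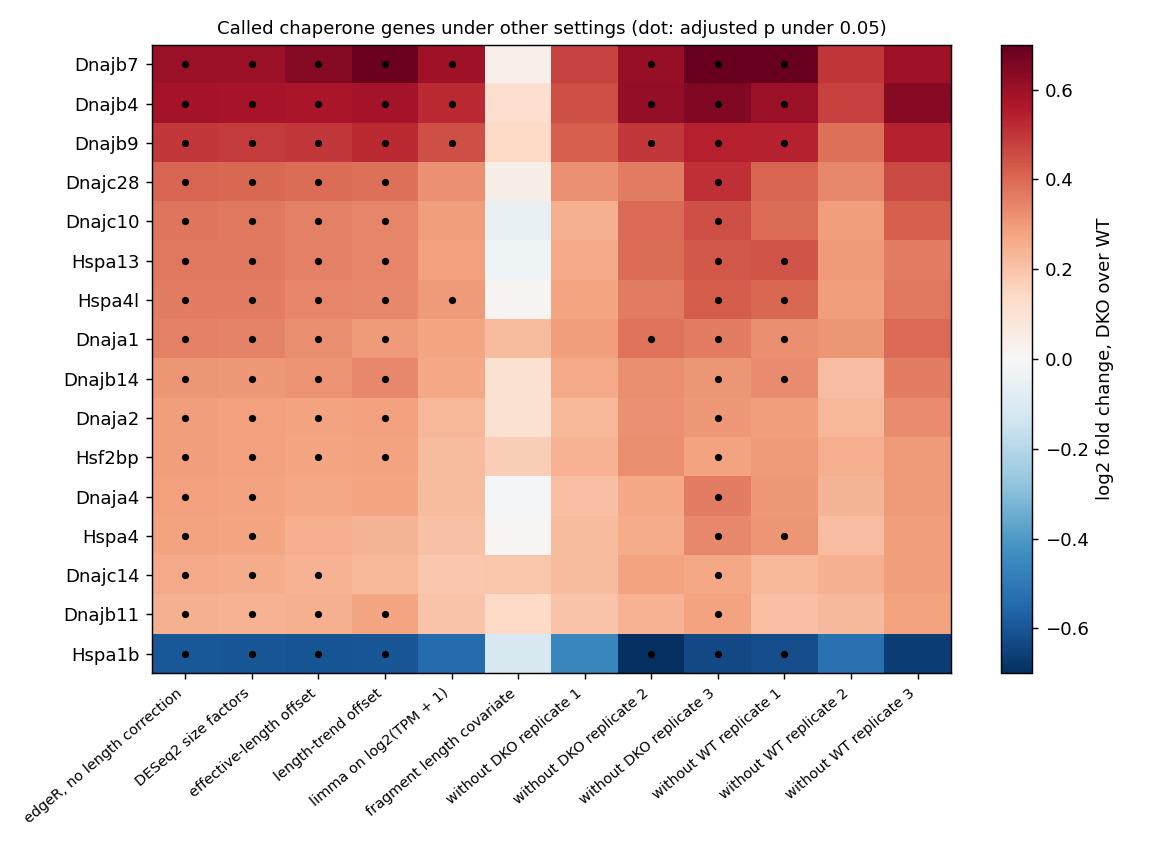
Log2 fold change (colour) of the 16 called genes in the edgeR fit without length correction, 5 other settings and the 6 leave-one-out fits, with a dot where the adjusted p was under 0.05. The columns without DKO replicate 1, WT replicate 2 and WT replicate 3 and the fragment length covariate hold no dots.

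Of the 76 genes, 3 lie within 10 Mb of a targeted gene on GRCm38.p6, which matters because sequence of another strain can travel with an engineered allele. Dnaja2 lies 0.949 Mb from Abcc12 and Dnajb11 2.43 Mb from Abcc5, and both were called. Dnajb1 lies 2.89 Mb from Abcc12 and was not. The part of the linked regions was not tested. The strand setting of the counting is not given in the sources used here. Counts of the called genes Dnaja1, Dnaja4, Dnajb9, Dnajb14, Dnajc14 and Hsf2bp may therefore include reads of genes that overlap their exons on the opposite strand (Smu1, Wdr61, Mir5627, Gm25920, Ormdl2 and Rrp1b).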

How the data were processed

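RNA sequencing of 3 libraries labelled DKO and 3 labelled WT was used, with groups from the genotype label and replicates numbered in accession order, so numbers pair nothing. Submitters' processing notes name STAR 2.7.0f, RSEM 1.2.31, DESeq2 1.12.3 and mm10, without roles. Per the file headers, the authors deposited RSEM gene tables. The deposited expected counts are RSEM estimates, of which 93.2% were whole (within 0.001). Deposited TPM is scaled by effective length within a library, and deposited FPKM was not used. Expected counts were rounded and filtered with filterByExpr in edgeR 4.0.16, keeping 17110 genes. After TMM scaling, libraries were compared by the quasi-likelihood test (log2 fold changes put DKO over WT, and SE is the absolute log2 fold change divided by the square root of F). P-values were adjusted over all tested genes. Fragment length was taken as the median difference of length and effective length, plus 1, in genes above 3000 bases. Alternatives used DESeq2 1.42.0, limma 3.58.1 and mgcv 1.9.3 in R 4.3.3, with a filter of at least 0.5 mean TPM for limma. No pair of libraries was a repeat deposit (chi-square over degrees of freedom at least 6.48). The code was tested on simulated data. Positions and promoters came from RefSeq, and exon overlaps and transcripts from GENCODE M21, both GRCm38.

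Members and lists were chosen with earlier results of these data known. By rule the text named Hspa2, Hspa1l, the targeted genes, called members, the 12 members with the highest mean TPM and 3 called genes per partner list. Other members were named after their values were seen, to complete a family.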

Additional observations from a re-analysis of the deposited data

How the results depend on the processing

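Settings fixed with the design gave the following counts of called chaperone genes and of all genes. Limma on log2(TPM + 1) called 4 and 873 (38.6% of the latter higher, against 53.0%), limma on log2(TPM + 0.1) called 4 and 863, and the fragment length covariate 0 and 1 (545 at an unadjusted p under 0.05). DESeq2 called 24 of 70 chaperone genes (34.3%, 22 of them higher) and 2923 of all 13752 genes with an adjusted p (21.3%). Leaving out a replicate gave 0 to 24 chaperone genes and 7 to 3029 of all genes. DESeq2 size factors, both other count filters, the effective-length offset and the length-trend offset kept the chaperone count between 16 and 19. The median log2 fold change of the chaperone genes was 0.071 to 0.13 in the 8 settings that kept all libraries without the covariate and 0.080 to 0.13 without a replicate. With the covariate it was -0.000796, beside -0.00876 over all genes. In that fit Hspa13, Dnajc10, Dnaja4 and Cdc37l1 turned to -0.0317, -0.0519, -0.00666 and -0.0223. That fit has 1 covariate that does not overlap between genotypes. The cause of the other differences was not tested. No paired analysis was possible because the labels give no number shared between the groups. Counts limit Hspb2, Hspb3, Hsf3 and Hsf4.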

Other observations

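The deposited gene length is a mean over annotated transcripts weighted by their estimated abundance, so it moves when the mix of transcripts moves. Of the 76 chaperone genes, 20 have several transcripts in the files. Of these, 19 were tested, and their lengths did not overlap between the groups for 5 of 19, beside 15.5% of 4805 tested genes with several transcripts. The 5 were Dnajb1, Dnajc1, Dnajc24, Hspa2 and Hspa5, named after their values were seen. Hsf4, which was not tested, did not overlap either and rested on 1 to 8 counts per library. The differences were small: Dnajc1 had 5364 ± 5.28 against 5384 ± 15.3 bases, Dnajc24 had 1193 ± 0.752 against 1186 ± 2.78 bases, and Hspa5 had 2538 ± 0.469 against 2537 ± 0.110 bases (SD, n = 3 each, DKO first). Among the called genes with several transcripts, Dnaja1, Dnajb4, Dnajb11, Dnajc28 and Hspa13, the lengths overlapped between the groups. For Dnaja1 they were 5576 ± 0.379 and 5576 ± 1.53 bases (SD, n = 3 each).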
